A study of Drosophila melanogaster with 9 samples.

Results

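The cytochrome P450 gene family was followed across 3 diets in the head and thorax of adult female fruit flies. Its members were the probe sets whose only gene symbol in the platform annotation began with Cyp, a number and a lower-case letter. These were 83 of the 18769 probe sets that were not array controls, and they stood for 81 genes. For the 2 genes with a pair of probe sets, Cyp12e1 and Cyp18a1, the probe set with the higher mean over all arrays was used. Within the family the choice used names and that mean, but the family itself was chosen with earlier results of these data known. Ecdysteroid enzymes named by phenotype, such as dib and shd, belong to the enzyme family but not to this set, and they are described below as a list of their own.

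All flies were females of the canton-s background, a common wild-type laboratory strain, aged 10 days. The groups were flies on a restricted diet, flies on the normal diet plus resveratrol, a plant polyphenol, and flies on the normal diet alone, with 3 biological replicates each. Each replicate was one Affymetrix array of total RNA pooled from at least 75 females. What the diets held, and how much resveratrol was added, is not given in the sources used here. Values are the authors' log2 probe set summaries from GCRMA, a method that subtracts a sequence-based background and normalizes arrays together. No gene is compared with another by its level, since probe sets differ in their response.

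Cytochrome P450s are haem enzymes that insert an oxygen atom into their substrates. Microsomal members draw electrons from P450 reductase and cytochrome b5, and mitochondrial members from a ferredoxin. In insects members of the family break down plant toxins and insecticides, make and inactivate the moulting hormone, and complete the hydrocarbons that waterproof the cuticle. Many are raised by foreign chemicals in the food, chiefly in midgut, Malpighian tubule and fat body. Most members lie beside close relatives, in runs that arose by gene duplication.

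The 9 arrays were alike across all probe sets, with correlations of 0.994 to 0.998 within a diet and 0.985 to 0.998 between diets. Tests covered the 8822 genes with a value of log2 4 or more on 3 or more arrays. Neuron, eye, muscle and fat body markers were present, as the label head/thorax implies. Marker transcripts of tissues that lie mainly in the abdomen were measured too. The 5 tested Malpighian tubule markers had array means of 9.14 to 9.33 on the restricted diet, 8.76 to 9.09 with resveratrol and 8.30 to 9.03 on the normal diet. The 7 tested germline genes had array means of 7.39 to 8.78 on the restricted diet, 5.56 to 8.48 with resveratrol and 5.93 to 7.06 on the normal diet. A further listed gene, the germline helicase vas, was at most 2.19 on any array, near the lowest value of the table, 2.12. In RNA from whole tissue, fewer cells of a type and less RNA per cell cannot be told apart.

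Of the 81 P450 genes, 63 entered the tests and 18 did not. None of those 18 reached log2 4 on any array, and their highest value was 3.47, for Cyp28c1. They comprised 10 of the 32 members of clan 4, 4 of the 37 of clan 3, 2 of the 8 of the mitochondrial clan and 2 of the 4 of clan 2, the clans being the old branches of the family. Cyp303a1, which sense-organ bristles need, stood at the lowest value of the table, 2.12, on every array. The median SD of a member over the arrays of a diet was 0.12 on the restricted diet, 0.14 with resveratrol and 0.12 on the normal diet (n = 3 each). A few members varied far more. Cyp6a19 had an SD of 1.29 with resveratrol and Cyp6a18 one of 1.36 on the normal diet.

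Flies on restricted and on normal food were compared first. On a list of P450s known for induction by foreign chemicals or for insecticide resistance, most were higher on the restricted diet. That list was chosen with earlier results of these data known. Cyp4d1 and its listed neighbour Cyp4d14 both rose, by about 6-fold. Cyp9b1, Cyp28a5, Cyp6a17 and Cyp12a5 were lower. In all, 15 members passed at a limma adjusted p under 0.05, 11 of them higher (17.5% of the 63 tested) and 4 lower (6.35%). The 11 include Cyp12d1-d, which entered the tests only through the restricted-diet arrays. Over all genes tested, 5.27% were called higher and 12.9% lower. The median change of the members was 0.02, against -0.05 over all genes, and the median size of a change, sign aside, was 0.29 against 0.18. The values of the 2 diets did not overlap for 20 members in the higher direction and 13 in the lower, 31.7% and 20.6% of the family, against 16.4% and 28.4% of all genes.

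**Figure D1:**
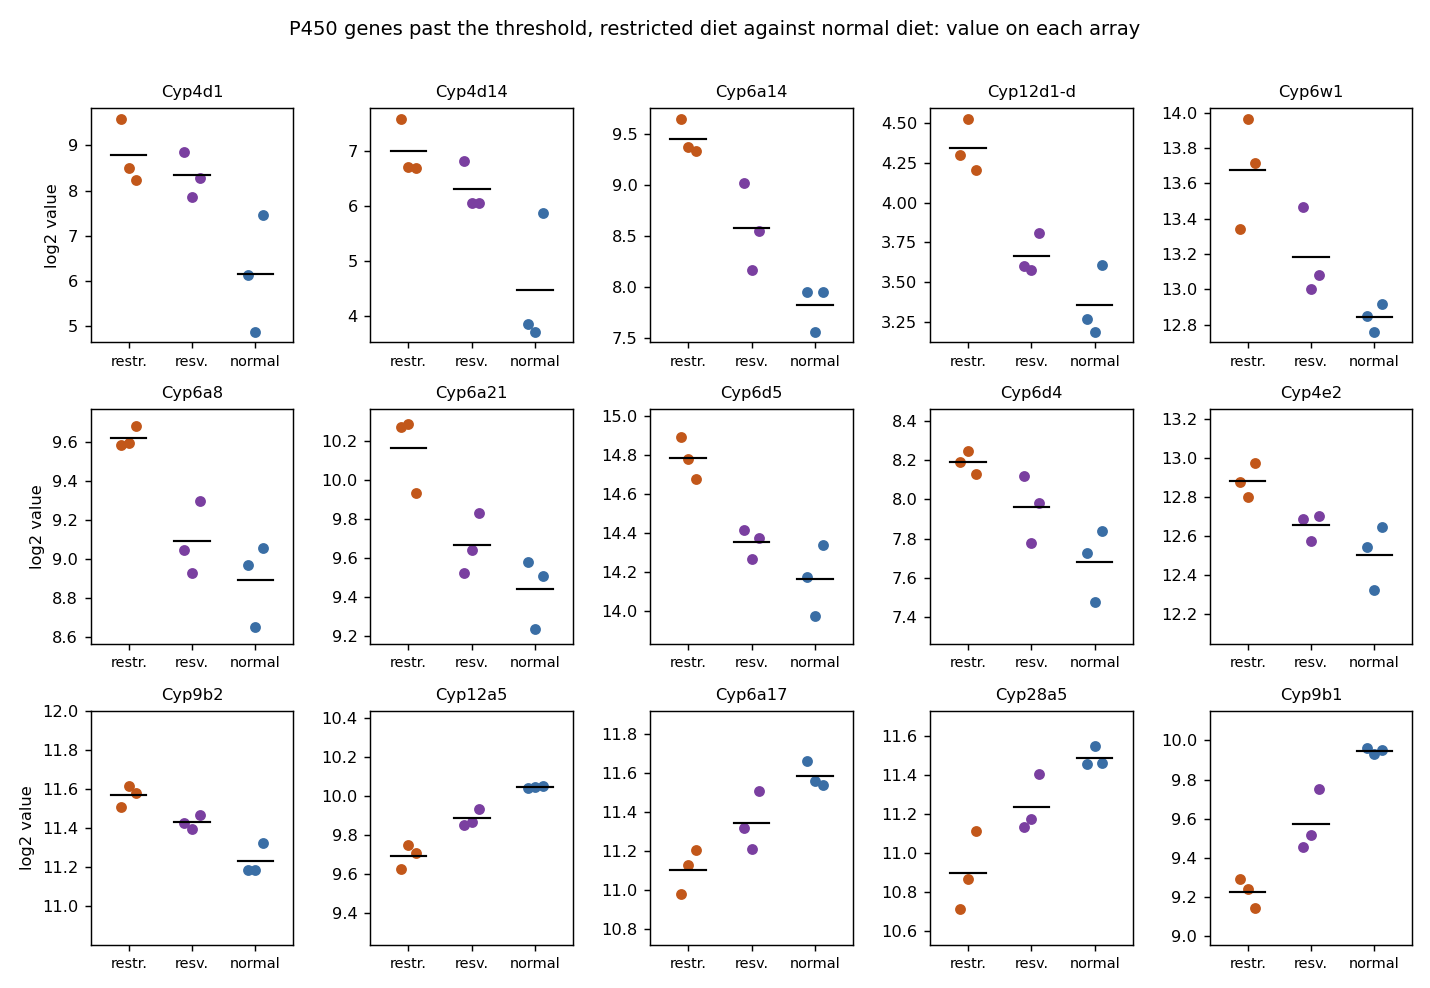
Each panel shows 1 of the 15 P450 genes called between the restricted and the normal diet, ordered by change, with the log2 value on each of the 9 arrays (dots, 3 per diet) and the mean of the diet (line). The vertical scales differ between panels. In all 15 panels the restricted-diet dots lie on one side of the normal-diet dots; Cyp4d1 spans 4.88 to 7.46 on the normal diet while Cyp12a5 spans 10.04 to 10.05.

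The list of inducible or resistance-linked P450s held 11 genes, of which 10 were tested. Of these, 7 rose and none fell (Cyp6a8, Cyp6a21, Cyp6d5, Cyp6w1, Cyp12d1-d, Cyp4e2 and Cyp4d14), where 5.27% of all genes were called higher and 12.9% lower. Among the 7, Cyp12d1-d entered the tests only through the restricted-diet arrays. The median change over the 10 was 0.67, against -0.05 over all genes. Because the list was chosen with earlier results of these data known, its share of rises is a description and no independent evidence. Cyp6a8, which is raised in DDT-resistant strains and by barbiturates, measured 9.58, 9.60 and 9.68 on the restricted diet, 9.04, 8.93 and 9.30 with resveratrol, and 8.97, 8.65 and 9.06 on the normal diet. It was thus higher on every restricted-diet array than on any other, and its change against the normal diet was 0.73 ± 0.13 (SE; 1.66-fold, adjusted p = 0.0137). Cyp6a21, its neighbour on the chromosome and also raised by barbiturates, had 10.27, 10.29 and 9.93 on the restricted diet, 9.52, 9.64 and 9.83 with resveratrol, and 9.58, 9.24 and 9.51 on the normal diet. All 3 restricted-diet values again lay above the other 6, with a rise of 0.72 ± 0.14 (SE; 1.65-fold, adjusted p = 0.0158). Without restricted-diet replicate 1 its call ended.

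Cyp6d5, another barbiturate-induced gene, read 14.90, 14.78 and 14.68 on the restricted diet, 14.42, 14.27 and 14.38 with resveratrol, and 14.18, 13.98 and 14.34 on the normal diet. The restricted-diet values stood above all others, and the rise was 0.62 ± 0.10 (SE; 1.54-fold, adjusted p = 0.0126). Its relative Cyp6d4, which is not on the list, had 8.19, 8.25 and 8.13 on the restricted diet, 8.12, 7.78 and 7.98 with resveratrol, and 7.73, 7.47 and 7.84 on the normal diet. Here the restricted-diet arrays lay just above the highest resveratrol array, and the rise over the normal diet was 0.51 ± 0.12 (SE; 1.43-fold, adjusted p = 0.0249). Its call ended without normal-diet replicate 1, normal-diet replicate 2 or any one of the restricted-diet arrays. Cyp6w1, linked to DDT resistance, gave 13.34, 13.97 and 13.71 on the restricted diet, 13.47, 13.002 and 13.08 with resveratrol, and 12.85, 12.76 and 12.92 on the normal diet. The restricted and resveratrol ranges overlapped, both lay above the normal-diet range, and the rise on the restricted diet was 0.83 ± 0.17 (SE; 1.78-fold, adjusted p = 0.02). Its call ended without normal-diet replicate 1, normal-diet replicate 2 or restricted-diet replicate 3.

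Cyp12d1 is a mitochondrial P450 carried in some strains as a pair of near-identical copies, Cyp12d1-d and Cyp12d1-p, and is raised in DDT-resistant flies. The probe set naming Cyp12d1-d alone was dim, at 4.30, 4.53 and 4.21 on the restricted diet, 3.60, 3.58 and 3.81 with resveratrol, and 3.26, 3.19 and 3.61 on the normal diet. It reached log2 4 only on the restricted-diet arrays, so it entered the tests only through the diet where it was high. It was under log2 4 on every normal-diet array, so its rise is given as at least 1.27-fold, computed with the normal-diet values set to log2 4 (adjusted p = 0.00836; measured means 4.35 ± 0.16 on the restricted diet and 3.35 ± 0.22 on the normal diet, SD, n = 3 each). A brighter probe set names both copies and is not a member for that reason. It measured 9.84, 9.76 and 9.78 on the restricted diet, 9.09, 8.60 and 8.73 with resveratrol, and 8.31, 7.75 and 8.89 on the normal diet, with the restricted-diet arrays above all others. Its rise of 1.48 ± 0.26 (SE; 2.79-fold, adjusted p = 0.0139) cannot be divided between the copies. After quantile normalization the change of the Cyp12d1-d probe set was 0.68 and the call ended.

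Cyp4e2, which stands between Cyp4ad1 and Cyp4e1 on the chromosome, had 12.88, 12.80 and 12.98 on the restricted diet, 12.69, 12.57 and 12.70 with resveratrol, and 12.55, 12.32 and 12.65 on the normal diet. The 3 restricted-diet values were the highest, with a rise of 0.38 ± 0.09 (SE; 1.30-fold, adjusted p = 0.0305), and the call ended in 4 of the 9 fits that left out 1 array, those without normal-diet replicate 1 or 2 or restricted-diet replicate 1 or 3. Of the listed genes that did not pass, Cyp6a2, long tied to DDT resistance, had a change of 0.23 (adjusted p = 0.104). Cyp6g1, the gene behind DDT resistance in many field populations, had 0.23 (adjusted p = 0.219, 95% interval -0.06 to 0.53). Its neighbour Cyp6g2 had -0.01 (adjusted p = 0.979). Cyp12d1-p has no probe set of its own.

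Cyp6a14 had the largest rise among members that kept the call with any single array left out. It measured 9.65, 9.37 and 9.33 on the restricted diet, 9.02, 8.16 and 8.54 with resveratrol, and 7.95, 7.56 and 7.95 on the normal diet. The 3 diets did not overlap one another, and the rise on the restricted diet was 1.63 ± 0.22 (SE; 3.10-fold, adjusted p = 0.00836). Cyp6a13, beside it on the chromosome, measured 9.69, 9.84 and 9.88 on the restricted diet, against 9.71, 9.71 and 9.75 on the normal diet, a change of 0.08 (95% interval -0.10 to 0.26).

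Cyp4d1 and Cyp4d14 had the largest changes of the family. Cyp4d1 read 9.59, 8.49 and 8.24 on the restricted diet, 8.86, 7.86 and 8.28 with resveratrol, and 6.13, 4.88 and 7.46 on the normal diet. The normal-diet arrays spread over more than 2 log2 units, yet all lay below the restricted-diet arrays, and the rise was 2.62 ± 0.65 (SE; 6.14-fold, adjusted p = 0.0315). Without normal-diet replicate 2 it was 3.95-fold and not called, and without normal-diet replicate 3 it was 9.65-fold. Cyp4d14 had 7.59, 6.71 and 6.70 on the restricted diet, 6.82, 6.06 and 6.05 with resveratrol, and 3.84, 3.71 and 5.87 on the normal diet. Normal-diet replicates 1 and 2 were under log2 4 and replicate 3 lay about 2 log2 units above them; the rise was 2.53 ± 0.57 (SE; 5.77-fold, adjusted p = 0.0252). Without replicate 3 both remaining normal-diet arrays are under log2 4, and the rise is at least 8.01-fold. Of the 9 fits that each left out 1 array, 3 called Cyp4d1 and 5 called Cyp4d14. Cyp4d2 and Cyp4ae1, which follow on the same stretch, had changes of 0.02 (95% interval -0.17 to 0.20) and 0.21 (95% interval -0.09 to 0.51) and did not pass.

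Cyp6a18 and Cyp6a19 had changes of similar size and did not pass. Cyp6a18 measured 6.91, 7.28 and 7.46 on the restricted diet, 6.11, 6.61 and 5.95 with resveratrol, and 5.999, 4.07 and 6.69 on the normal diet, a change of 1.63 ± 0.59 (SE; adjusted p = 0.0891). Its normal-diet replicate 2, near log2 4, lay well under the other normal-diet arrays, and without it the change was 1.83-fold; without normal-diet replicate 3 it was 4.53-fold and passed (adjusted p = 0.0358). Cyp6a19 measured 6.995, 6.14 and 7.12 on the restricted diet, 7.65, 6.17 and 5.08 with resveratrol, and 5.13, 4.89 and 5.82 on the normal diet, a change of 1.47 ± 0.61 (SE; adjusted p = 0.122). In this gene the widest group was resveratrol.

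Normal-diet replicate 2 held the lowest of the 9 values for 22 of the 63 members, 34.9%, against 13.9% of all genes tested, and restricted-diet replicate 1 did so for 17, 27.0%, against 22.9% of all genes. The mean levels of midgut, fat body, oenocyte and Malpighian tubule markers were also lowest on that normal-diet array. The mean of 9 midgut markers ran 11.61 to 12.06 on the restricted diet, 10.93 to 11.43 with resveratrol and 10.11 to 11.14 on the normal diet. Of those 9, 5 rose on the restricted diet (mesh, Ssk, Tsp2A, Jon25Biii and Mal-A1) and none fell. Over all genes 5.27% were called higher and 12.9% lower, and the marker lists were chosen with earlier results of these data known. None of the 9 was near the lowest value of the table, and Jon25Biii, a gut protease, ranged most, over 4.92 to 14.65. The mean of 4 fat body markers ran 13.82 to 14.06 on the restricted diet, 13.35 to 14.01 with resveratrol and 12.58 to 12.84 on the normal diet; Lsp2 rose by 3.89, fit by 0.78 and Mtp by 0.33, while apolpp had -0.01 (adjusted p = 0.9), and Fbp1 and Fbp2 were at most 2.195 and 2.30. The part of these tissues in the P450 rises was not tested. Without normal-diet replicate 2, 9 members were called between the restricted and normal diets, 6 higher and 3 lower.

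**Figure D2:**
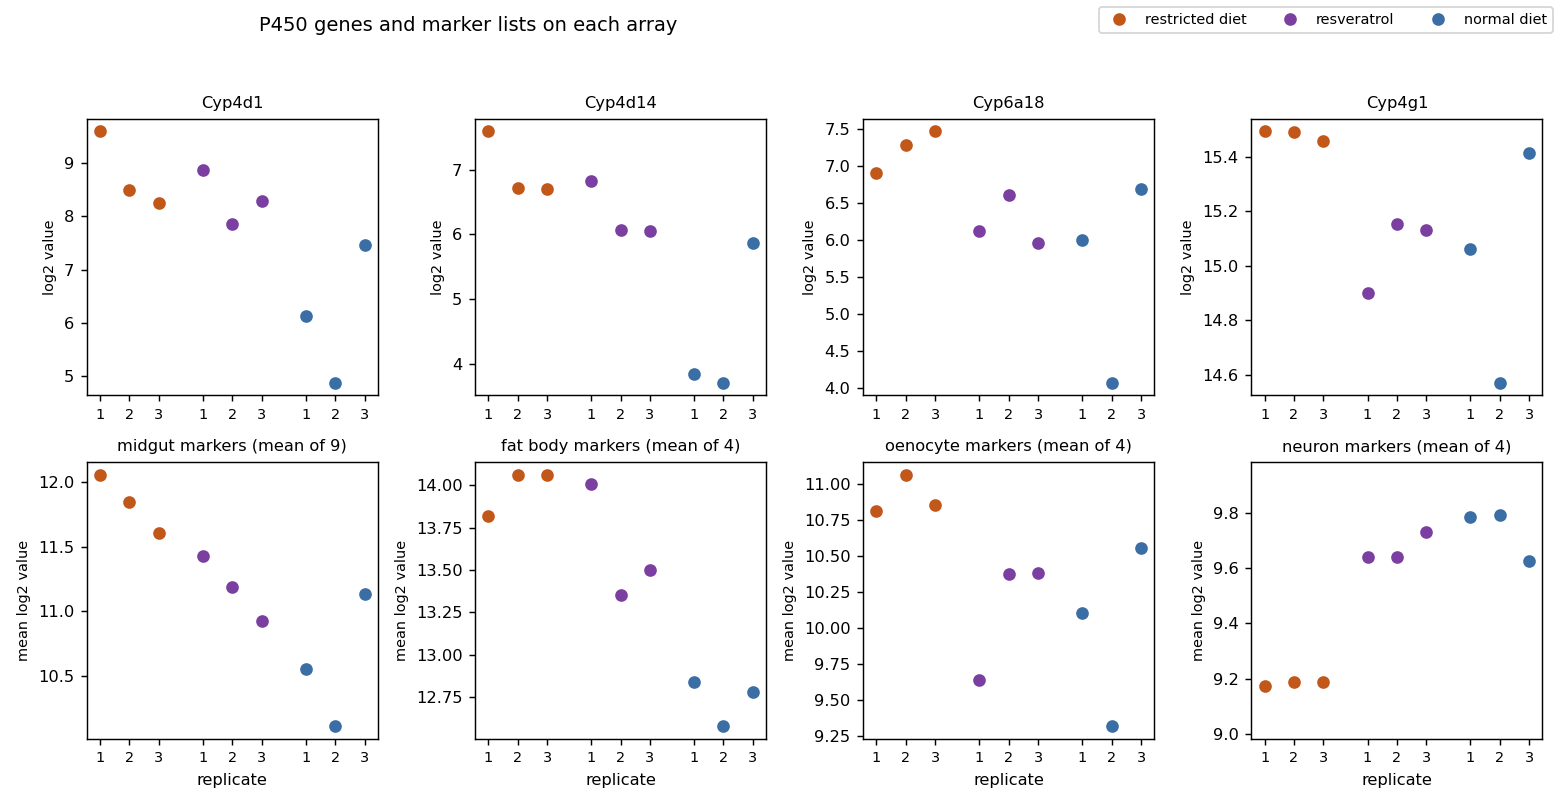
The upper row gives the log2 value of Cyp4d1, Cyp4d14, Cyp6a18 and Cyp4g1 on each array, and the lower row the mean log2 value of 4 marker lists, with replicates 1 to 3 of each diet side by side and colours for the diets. Normal-diet replicate 2 is lowest in all 4 upper panels and in the midgut, fat body and oenocyte panels, where its means are 10.11, 12.58 and 9.32; the restricted-diet arrays are lowest in the neuron panel, at 9.18 to 9.19.

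Of the 4 members that fell, Cyp9b1 changed most. It measured 9.29, 9.24 and 9.14 on the restricted diet, 9.45, 9.52 and 9.75 with resveratrol, and 9.96, 9.93 and 9.95 on the normal diet. The 3 diets did not overlap, the normal-diet arrays lay close together, and the fall on the restricted diet was 0.72 ± 0.08 on the log2 scale (SE; adjusted p = 0.00607). Cyp28a5 had 10.71, 10.86 and 11.11 on the restricted diet, 11.13, 11.17 and 11.40 with resveratrol, and 11.46, 11.54 and 11.46 on the normal diet. Every restricted-diet value lay below every resveratrol value and every resveratrol value below every normal-diet value, and the fall was 0.59 ± 0.11 on the log2 scale (SE; adjusted p = 0.0166). Cyp6a17, needed in mushroom body neurons for the normal choice of temperature, read 10.98, 11.13 and 11.20 on the restricted diet, 11.32, 11.21 and 11.51 with resveratrol, and 11.66, 11.56 and 11.53 on the normal diet. Its fall was 0.48 ± 0.09 on the log2 scale (SE; adjusted p = 0.0166), with resveratrol between the other diets. Cyp12a5, a mitochondrial member, had 9.62, 9.75 and 9.70 on the restricted diet, 9.85, 9.87 and 9.93 with resveratrol, and 10.04, 10.04 and 10.05 on the normal diet, and its fall was 0.35 ± 0.05 on the log2 scale (SE; adjusted p = 0.0102). The calls for Cyp28a5 and Cyp6a17 ended without normal-diet replicate 1, normal-diet replicate 2 or restricted-diet replicate 1, each left out alone.

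All 4 tested neuron markers (elav, nSyb, brp and Rdl) and all 3 tested eye markers (trp, inaC and Arr2) fell as well. Over all genes 12.9% were called lower, and these lists too were chosen with earlier results of these data known. Neuron means ran 9.18 to 9.19 on the restricted diet, 9.64 to 9.73 with resveratrol and 9.63 to 9.79 on the normal diet, and eye means 11.97 to 11.999 on the restricted diet, 12.31 to 12.43 with resveratrol and 12.40 to 12.58 on the normal diet. Of 4 muscle markers, TpnC4 and Mlc2 fell; their mean ran 12.11 to 12.20 on the restricted diet, 12.26 to 12.52 with resveratrol and 12.42 to 12.82 on the normal diet. Of 4 glial markers, repo and nrv2 fell, and the mean ran 11.43 to 11.60 on the restricted diet, 11.55 to 11.81 with resveratrol and 11.74 to 11.89 on the normal diet. None of these markers was below 7.69 on any array. Of 4 antennal markers Orco alone fell. Their part in the falls of the P450 genes was not tested.

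Other members with lower mean values on the restricted diet did not pass. Cyp6a20, which lowers aggression in males, had a change of -0.44 ± 0.13 (SE; adjusted p = 0.0532). Its values of 9.46, 9.67 and 9.63 on the restricted diet, against 9.92, 10.31 and 9.85 on the normal diet did not overlap. Cyp4p1, like Cyp4d21 picked out after its values were seen, had -0.34 ± 0.10 (SE; adjusted p = 0.0547). Cyp4g15, a relative of Cyp4g1 found in the nervous system, had -0.48 (adjusted p = 0.114), and Cyp4d21, the sex-specific enzyme sxe1 tied to male courtship, had -0.37 (adjusted p = 0.452, 95% interval -1.17 to 0.43).

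Calls were next laid along the chromosomes. By the order of genes in assembly Release 6, the P450 genes formed 17 runs of 2 or more with at most 2 other protein-coding genes between them, and 39 of the 63 tested members lay in such runs. Of the 17 runs, 12 held 2 or more tested genes. Over all genes 5.27% were called higher and 12.9% lower, and runs of other genes were not counted. A gene called between the restricted and normal diets lay in 7 of the 17 runs. Calls in both directions, which need 2 or more called genes in a run, lay in 2. Cyp9b1 and Cyp9b2 are such a pair. While Cyp9b1 fell, Cyp9b2 rose, with 11.51, 11.62 and 11.58 on the restricted diet, 11.43, 11.40 and 11.47 with resveratrol, and 11.19, 11.19 and 11.32 on the normal diet and a change of 0.34 ± 0.06 (SE; 1.26-fold, adjusted p = 0.0139); the call ended without normal-diet replicate 1. The difference of the 2 probe sets on the same array, Cyp9b2 minus Cyp9b1, was 2.22, 2.38 and 2.44 on the restricted diet, 1.98, 1.88 and 1.72 with resveratrol, and 1.22, 1.26 and 1.37 on the normal diet. It separated all 3 diets; the pair was picked out after its values were seen, and only the change of the difference is meaningful.

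The longest run holds 9 genes, in the order Cyp6a22, Cyp6a17, Cyp6a23, Cyp6a19, Cyp6a9, Cyp6a20, Cyp6a21, Cyp6a8 and Cyp317a1. Of the 8 tested, Cyp6a17 fell near one end and Cyp6a21 and Cyp6a8 rose near the other. Among the others Cyp6a23 had a change of -0.01 (95% interval -0.14 to 0.13), Cyp6a9 of -0.28 (95% interval -0.69 to 0.13) and Cyp6a22 of -0.20 (95% interval -0.44 to 0.03). Cyp6a19 and Cyp6a20, given above, did not pass either. Cyp317a1 was at most 2.196 on every array.

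**Figure D3:**
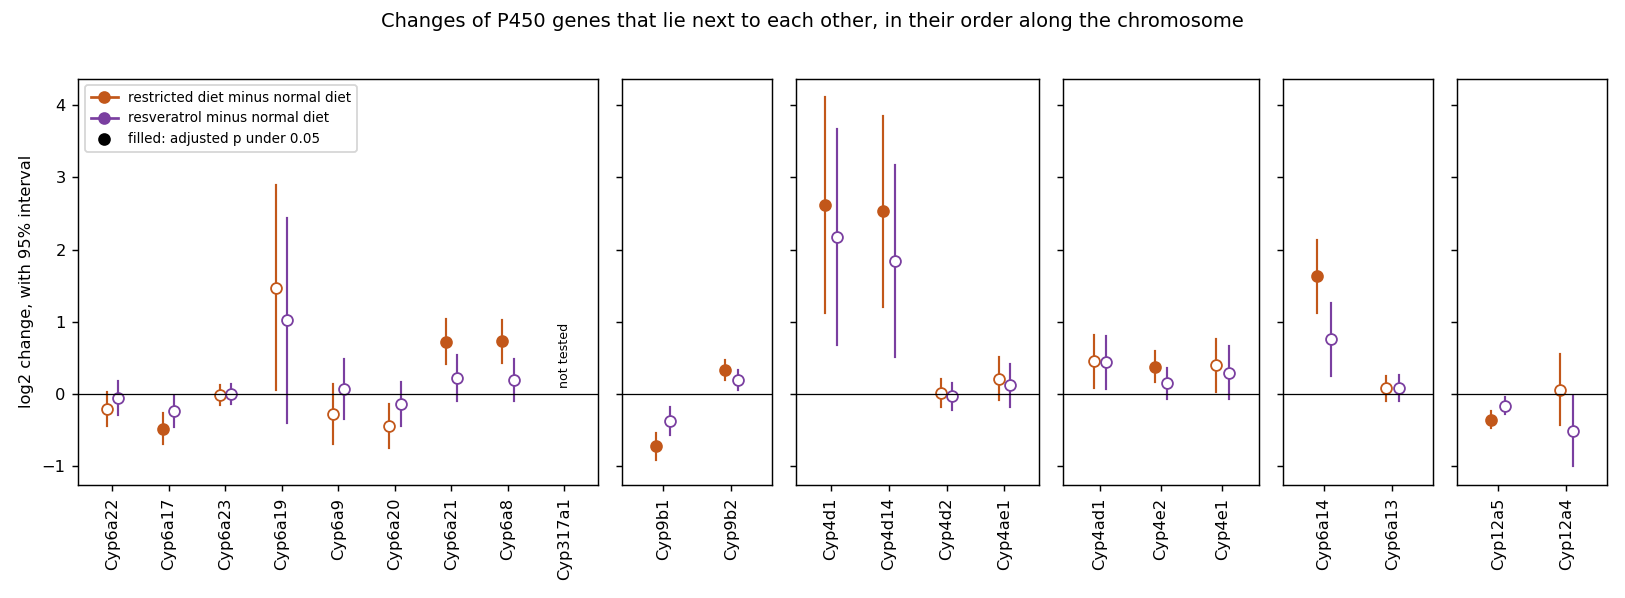
Points give the log2 change of each gene against the normal diet for the restricted diet and for resveratrol, with 95% intervals of the fit, in 6 runs of neighbouring P450 genes ordered along the chromosome; filled points passed at an adjusted p under 0.05. Cyp9b1 and Cyp9b2 are filled on opposite sides of 0, and in the run of 9 the filled points are Cyp6a17 below 0 and Cyp6a21 and Cyp6a8 above it; no resveratrol point is filled.

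In the mitochondrial pair Cyp12a5 and Cyp12a4, Cyp12a5 fell and Cyp12a4, whose overexpression gives lufenuron resistance, measured 11.16, 10.54 and 11.03 on the restricted diet, 10.12, 10.33 and 10.56 with resveratrol, and 10.94, 10.50 and 11.10 on the normal diet. Its change on the restricted diet was 0.06 (95% interval -0.43 to 0.55), an interval that holds the change of Cyp12a5. Cyp4ad1 and Cyp4e1, on either side of Cyp4e2, had 0.45 and 0.40 (adjusted p = 0.0795 and 0.108), with intervals of 0.09 to 0.82 and 0.03 to 0.77. Cyp4ad1 was dim, with 4.63, 4.30 and 4.23 on the restricted diet, against 3.86, 3.71 and 4.23 on the normal diet, so that 2 of the 3 normal-diet arrays were under log2 4.

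By clan, 7 of 33 tested members of clan 3, which holds the Cyp6, Cyp9 and Cyp28 groups, rose and 3 fell. In clan 4, 3 of 22 rose and none fell. One mitochondrial member of 6 rose and 1 fell. The one that rose was Cyp12d1-d, which entered the tests only through the restricted-diet arrays, where it was high. Neither of the 2 tested members of clan 2 passed. The clan medians lay between -0.09 and 0.03. Over all genes 5.27% were called higher and 12.9% lower, and no test compared the clans.

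**Figure D4:**
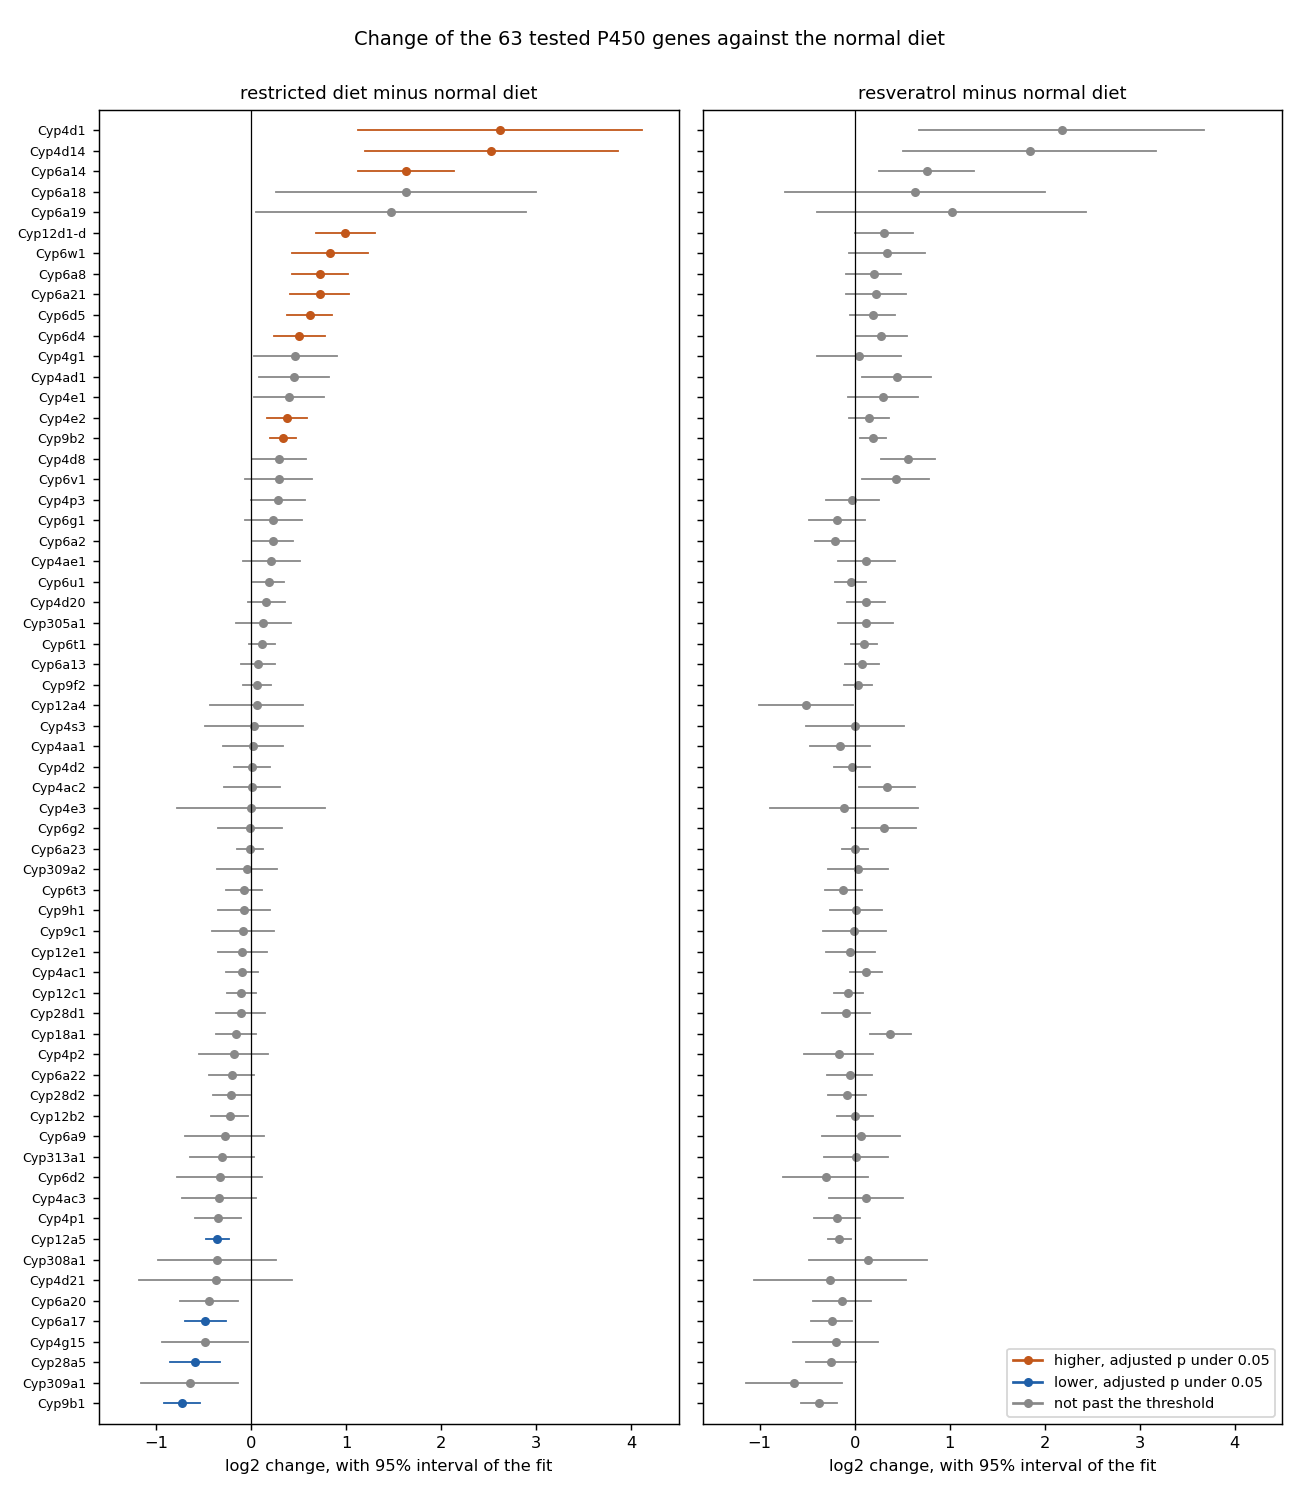
The log2 change of each of the 63 tested P450 genes is drawn with the 95% interval of the fit, for restricted diet minus normal diet on the left and resveratrol minus normal diet on the right, in the order of the left panel. On the left 11 genes are marked as higher and 4 as lower; on the right none is, and the largest values are 2.18 for Cyp4d1 and 1.84 for Cyp4d14, with wide intervals.

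Hormone and cuticle enzymes were looked at by role. Of 7 ecdysteroid enzymes, which make or inactivate the moulting hormone, Cyp18a1 alone entered the tests. phtm, dib, sad and spok were at most 2.13, near the lowest value of the table, spo reached 2.74, and shd, which makes the active hormone, had a highest value of 4.97 but was under log2 4 on at least 7 arrays. Cyp18a1, which inactivates the hormone, had 10.24, 10.32 and 10.21 on the restricted diet, 10.59, 10.87 and 10.90 with resveratrol, and 10.52, 10.37 and 10.35 on the normal diet. Its restricted-diet values all lay under the normal-diet values, but the change did not pass ( -0.16, adjusted p = 0.248, 95% interval -0.37 to 0.06). The other probe set of Cyp18a1, which was not tested, had a larger change of -0.33, also without overlap.

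Cyp4g1, which makes cuticular hydrocarbons in oenocytes, had 15.49, 15.49 and 15.46 on the restricted diet, 14.90, 15.15 and 15.13 with resveratrol, and 15.06, 14.57 and 15.41 on the normal diet. Its 3 restricted-diet values lay close together and above all others, but normal-diet replicate 3 came near them, and the change of 0.47 ± 0.19 did not pass (SE; adjusted p = 0.115); it did without normal-diet replicate 3 (change 0.67, adjusted p = 0.0292). Of 12 listed genes of the hydrocarbon pathway, 7 were tested and none passed in limma; their median change was 0.85, against -0.05 over all genes. The desaturase Desat1 had -0.22 (adjusted p = 0.326), and the other 6 had 0.66 to 1.27. Among those the fatty acid synthase FASN3 had 1.04 (adjusted p = 0.0501), the desaturase Fad2 0.95 (adjusted p = 0.0782) and the elongase eloF 0.85 (adjusted p = 0.0929). The mean of the 4 oenocyte markers, which are members of that pathway, ran 10.81 to 11.07 on the restricted diet, 9.64 to 10.38 with resveratrol and 9.32 to 10.56 on the normal diet.

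Genes listed as redox partners of P450s or for haem were read from the same fit. Of 7 redox partners 5 were tested. Cyt-b5-r fell by 0.22 (adjusted p = 0.0435) and none rose. That gene was listed by its name, and a role as a P450 partner is not established for it. Cytochrome b5 itself, Cyt-b5, had 0.17 and the ferredoxins Fdx1 and Fdx2 -0.18 and -0.03. Of 8 genes of haem synthesis and breakdown 6 were tested, and FeCH, the ferrochelatase that inserts the iron, fell by 0.19 (adjusted p = 0.0467). Alas, the first enzyme of the pathway, had -0.22 (adjusted p = 0.0962). The 2 lower calls among these 11 genes, Cyt-b5-r and FeCH, stand beside 12.9% called lower over all genes. The list medians were -0.03 for listed redox partners and 0.07 for haem genes.

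Of 15 regulators of detoxification and hormone response, 2 rose and 3 fell on the restricted diet, where 5.27% of all genes were called higher and 12.9% lower. Hr96, a nuclear receptor of the response to foreign chemicals, had 8.66, 8.65 and 8.43 on the restricted diet, against 8.002, 8.13 and 7.99 on the normal diet, a rise of 0.54 (adjusted p = 0.0126). Keap1, the inhibitor of the detoxification factor CncC, had 8.40, 8.70 and 8.51 on the restricted diet, against 7.94, 8.09 and 7.97 on the normal diet, a rise of 0.54 (adjusted p = 0.0126). The gene of CncC, cnc, had a change of 0.01. Its values ran only from 13.04 to 13.07, with 13.0552 repeated on several arrays. Whether that probe set responds to the transcript was not tested. The juvenile hormone receptor Met fell by 0.69, foxo by 0.34 and usp, the partner of the ecdysone receptor, by 0.25 (adjusted p = 0.0194, 0.0203 and 0.0491). The median over the 15 was -0.23, against -0.05 over all genes. Between the restricted diet and resveratrol, Hr38 and foxo were lower on the restricted diet (adjusted p = 0.039 and 0.0474), where 2.09% of all genes were called lower. Over all genes the 224 calls of this comparison became 11 with arrays centred on their median and 13 with quantile normalization. Hr38 and foxo were not followed singly through those alternatives.

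The second comparison took resveratrol flies and normal-diet flies. In limma 0 of the 63 members passed, where 4 genes of all tested, 0.0453%, were called higher and 16, 0.181%, lower. At an unadjusted p under 0.05 there were 16 members, 25.4%, against 9.73% of all genes. The values did not overlap for 11 members in the higher direction and 5 in the lower, 17.5% and 7.94% of the family, against 6.33% and 9.08% of all genes. The median change was 0.03, against -0.01 over all genes. Both comparisons share the normal-diet arrays, so their values are given side by side and no agreement is read from them.

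The smallest adjusted p belonged to Cyp4d8 and Cyp9b1. Cyp4d8 measured 7.73, 7.93 and 7.86 on the restricted diet, 7.94, 7.99 and 8.38 with resveratrol, and 7.66, 7.49 and 7.48 on the normal diet. The 3 resveratrol values lay above all 3 normal-diet values, with a change of 0.56 ± 0.12 (SE; adjusted p = 0.162). Cyp9b1 had a change of -0.38 with resveratrol (adjusted p = 0.162), beside -0.72 on the restricted diet. Cyp6a14 had 0.76 (95% interval 0.26 to 1.26, adjusted p = 0.278), beside 1.63. None of these can be told from no change at the threshold used, and the intervals also hold sizable changes.

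Cyp4d1 and Cyp4d14 again had the largest changes, 2.18 and 1.84, with 95% intervals of 0.68 to 3.67 and 0.51 to 3.17 (adjusted p = 0.302 and 0.336). For both genes the 3 resveratrol values lay above the 3 normal-diet values. Without normal-diet replicate 2 the change of Cyp4d1 was 2.91-fold and without normal-diet replicate 3 it was 7.11-fold. That of Cyp4d14 was 3.58-fold, and at least 4.97-fold without normal-diet replicate 3. For the inducible genes the changes with resveratrol were 0.20 for Cyp6a8, 0.22 for Cyp6a21, 0.19 for Cyp6d5 and 0.34 for Cyp6w1, and the median over the 10 was 0.21, against -0.01 over all genes. Cyp6a2 and Cyp6g1 had -0.21 and -0.19. Cyp309a1, picked out after its values were seen, measured 7.63, 7.77 and 7.77 on the restricted diet, 7.82, 7.64 and 7.74 with resveratrol, and 8.74, 7.79 and 8.57 on the normal diet. Its change with resveratrol was -0.64 and did not pass (adjusted p = 0.377). Normal-diet replicate 2 lay with the other diets, against the fall; the fit without that array gave -0.92 (adjusted p = 0.0296), the only one of the 9 that called it.

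The last comparison was between the restricted diet and resveratrol. Of the 63 members, 1 was higher and 1 lower on the restricted diet, 1.59% each, against 0.453% and 2.09% of all genes. Cyp18a1 was lower on the restricted diet, where all 3 values lay under the 3 resveratrol values given above, by 0.53 ± 0.09 on the log2 scale (SE; adjusted p = 0.0413). Its other probe set had 8.15, 8.24 and 8.39 on the restricted diet, against 8.60, 8.86 and 8.95 with resveratrol, a difference of -0.54. Cyp12d1-d was higher on the restricted diet, the only diet in which it reached log2 4 and through which it passed the filter. All its resveratrol values were under log2 4, which bounds the difference at 1.27-fold or more (adjusted p = 0.0467). Without a filter on low values neither this call nor that of Cyp18a1 remained. The probe set shared by both Cyp12d1 copies differed by 0.99 and did not pass (adjusted p = 0.0794). Each of the 2 calls held in 2 of the 9 fits that left out 1 array.

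Several members came near the threshold in this comparison. Cyp6a2 measured 9.54, 9.44 and 9.67 on the restricted diet, against 9.19, 8.998 and 9.14 with resveratrol, a difference of 0.44 ± 0.09 (SE; adjusted p = 0.051). Of the inducible list, Cyp6a8 differed by 0.53, Cyp6d5 by 0.43 and Cyp6a21 by 0.50 (adjusted p = 0.0675, 0.0665 and 0.0822). Cyp6a14, which is not on that list, differed by 0.87 (adjusted p = 0.0715). In the other direction, Cyp9b1 differed by -0.35 and Cyp12a5 by -0.19 (adjusted p = 0.0665 and 0.0822). For Cyp4d1 and Cyp4d14, which changed most against the normal diet, the 95% intervals of the difference between the treatments were -1.05 to 1.94 and -0.64 to 2.02. Over the 10 inducible genes the median difference was 0.47, against -0.04 over all genes, and 1 of them, Cyp12d1-d, passed, with the limit given above. The values did not overlap for 14 members in the higher direction and 10 in the lower, 22.2% and 15.9% of the family, against 9.83% and 21.2% of all genes.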

How the data were processed

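Total RNA of 9 pools of female head and thorax, 3 per diet, was hybridised to Affymetrix arrays, per the labels. The deposited table holds log2 probe set values, which the authors made with GCRMA, per the submitters' processing notes. No source used here names its version or says which arrays were normalized as one set. The log2 scale was inferred from their range of 2.12 to 16.39. Background subtraction of this kind widens changes near the floor.

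From these values the 183 control probe sets were left out and a probe set was kept where 3 of 9 arrays reached log2 4, which 9401 of 18769 did. The brightest probe set stood for a gene. All 9 arrays were fitted in limma 3.58.1 (R 4.3.3), one mean for each diet, with moderated variances (6 residual and 1.81 prior degrees of freedom). Two-sided p-values were adjusted by Benjamini-Hochberg over the 8822 genes, with a threshold of 0.05. Intervals are the fit's 95% intervals for single genes. The fit was tested on simulated data first. For arrays, their number limits the precision.

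The members and lists were chosen with earlier results of these data known. Named members were those called in a comparison, the 5 largest changes per comparison among members whose values did not overlap, members with a textbook role, and measured neighbours of called members; others are said to be picked out later. Entries of the lists that proved to be mistaken or of unsure role (CG4319, app and KFase) were dropped. Cyt-b5-r, also of unsure role as a P450 partner, was kept. Names were matched by gene identifier to the gene table of Release 6, which held all 81 members. Start positions from that table served only to order the genes along each chromosome, and distances between genes were not used. List genes without a probe set of their own, such as Cpr and norpA, were not analysed here. Alternatives covered the normalization, filter, probe set, variance model, arrays fitted, threshold, replicate number and leaving out each array.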

Additional observations from a re-analysis of the deposited data

How the results depend on the processing

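The count of 15 P450 genes called between the restricted and the normal diet was 9 without a filter on low values. Those 9 include Cyp301a1, which is not among the 15 and was at most 2.62 on any array. The count was 7 (without normal-diet replicate 1) to 19 (without normal-diet replicate 3) when single arrays were left out. All 15 kept their sign and 6 their call in all 9 of the fits that left out 1 array (Cyp12a5, Cyp6a14, Cyp6d5, Cyp12d1-d, Cyp9b1 and Cyp6a8). Quantile normalization ended the call of Cyp12d1-d (0.68). The filter was not applied again in the fits that left out 1 array. Without any one restricted-diet array Cyp12d1-d would not pass it, so its calls in those fits say nothing of its stability. For resveratrol against the normal diet the count of 0 became 1 without a filter (Cyp301a1, at most 2.62 on any array) and ranged from 0 to 1 with single arrays left out. For the restricted diet against resveratrol the count of 2 became 0 with arrays centred, with quantile normalization, without a filter and with only the 2 diets in the fit, 9 at an adjusted p under 0.1, and 0 to 6 with single arrays left out, the 6 without normal-diet replicate 2. The cause was not tested. With the replicate number as a block, 14 genes (9 higher, 5 lower), 0 and 0 were called in the 3 comparisons. The numbers were not taken to pair the arrays, since the deviations of same-numbered arrays correlated at -0.33 to 0.40, over 0.1 in 2 of 9 pairs. The family medians stayed within the spread between replicates in every alternative run. Over all genes, 1604 calls for the restricted diet against the normal diet became 598 without a filter, 931 with the block, 2747 at an adjusted p under 0.1 and 332 to 1671 with single arrays left out. The 20 calls for resveratrol became 10 without a filter, 43 with a variance trend, 4 with only those diets, 1 with the block, 61 at 0.1 and 2 to 9 with single arrays left out. The 224 between the restricted diet and resveratrol became 11 with centring, 13 with quantile normalization, 8 without a filter, 1 with only those diets, 0 with the block, 884 at 0.1 and 0 to 290 with single arrays left out. Cyp12d1-d was under log2 4 on every normal-diet and resveratrol array, so only a bound on its change can be given. It passed the filter only through the restricted-diet arrays.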
